A study of Mus musculus with 12 samples.

Results

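The axon guidance ligands and receptors of tongue-innervating sensory neurons are described here, as the 71 genes of the 22609 in the count tables whose symbols name a semaphorin, plexin, neuropilin, ephrin, Eph receptor, Slit, Robo, netrin, Unc5 or Dcc. The genes were chosen by symbol alone, and no measured value entered the choice. Trigeminal ganglion (TG) neurons were labeled by injecting wheat germ agglutinin, a tracer that nerve endings carry back to the cell body, into the tongue of adult athymic nude mice, and the labeled cells were sorted and sequenced in bulk. The 12 samples fall into 4 groups of 3, with MN for normal males, MT for males with a tongue tumor, FN for normal females and FT for females with a tongue tumor. Tumor mice carried HSC3 cells, which derive from a human squamous carcinoma of the mouth, on one side of the ventral tongue, and TGs were taken on day 15. According to the sample labels the normal mice received no cells, whereas the methods text states that they received human oral keratinocytes, so which of the 2 applies could not be told. Each normal sample pooled 4 TGs of 2 mice and each tumor sample 4 ipsilateral TGs of 4 mice, so a sample is a pool and not an animal. Athymic nude mice lack mature T cells, which all 4 groups share.

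Guidance genes steer growing axons in the embryo, and many stay on in adult neurons, glia and vessels. Semaphorins signal through plexins, and most of the secreted class 3 semaphorins also need the neuropilin co-receptors. Ephrins are membrane-bound ligands of the Eph receptor tyrosine kinases, Slits are secreted ligands of Robo receptors, and netrins bind Dcc and the Unc5 receptors. Several members also act in blood vessels, among them Robo4, Ephb4, Sema3g and Nrp1, which endothelial cells express. The symbol rule also takes in Unc50 and Unc5cl, which share only letters with the netrin receptors, and both were kept in the counts and read apart.

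Each library held 4592891 to 8922011 reads assigned to genes. Counts are given as CPM (counts per 1000000 reads assigned to genes) within a gene, and as RPKM (CPM per kb of summed exon length) between genes. In CPM, 3 counts, taken as the limit of detection, amounted to 0.336 to 0.653 by library. FN replicate 2, FT replicate 2 and FT replicate 3 stood apart, with 56.0%, 68.4% and 52.6% of their reads mapped to several places against 43.0% to 45.5% in the other 9. The summed guidance signal was 975 CPM, 1426 CPM and 1174 CPM in these 3 libraries against 1623 to 1995 CPM in the other 9. Sensory neuron markers were present in each library, with a sum over 16 genes of 22275 to 31414 CPM. Markers of other cells were present as well. The 15 endothelial markers summed to 395 to 2162 CPM, the 10 satellite glia markers to 3646 to 18110 CPM, the 10 myelinating Schwann cell markers to 1392 to 3814 CPM, the 10 pericyte and smooth muscle markers to 106 to 303 CPM, the 10 fibroblast markers to 121 to 461 CPM and the 11 macrophage markers found in the tables to 8.80 to 271 CPM. No marker was at 0 in all 12 libraries. In bulk samples such as these, fewer cells of a type and less RNA per cell cannot be told apart.

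In MN, 40 of the 71 genes exceeded a mean of 1 RPKM, or 56.3%, against 53.2% of the 21627 genes with an exon length. A mean of over 5 RPKM was reached by 19 guidance genes, or 26.8%, against 33.9% of the 21627 genes. Of the 71 guidance genes 9 exceeded 10 RPKM, and of the 21627 genes 5180 did. The 31 guidance genes not over 1 RPKM included 2, Sema3a and Epha10, with 3 counts or fewer in every library. Sema3a, the best known axon repellent of its class, had no read in any of the 12 libraries.

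Among the ephrins, Efna1, a ligand of the EphA receptors, stood first at 56.7 ± 6.01 RPKM in MN (mean ± SD, n = 3). Its 3 MN values were 63.5, 52.0 and 54.6 RPKM. Efna5, another EphA ligand, followed at 9.77 ± 0.291 RPKM and the X-linked Efnb1 at 3.53 ± 0.685 RPKM. Of the 8 ephrins, 5 exceeded 1 RPKM. Ephb6, an Eph receptor that lacks kinase activity, led the 14 receptors at 10.6 ± 0.905 RPKM. Ephb4 stood at 2.96 ± 1.02 RPKM and Epha5 at 2.14 ± 0.285 RPKM, 2 receptors whose MN ranges overlapped. Every EphA receptor thus lay below Efna1 and Efna5 in level per length, with none above 5 RPKM.

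Among class 3 semaphorins, the secreted ones, Sema3b reached 15.2 ± 1.92 RPKM in MN, Sema3f 6.51 ± 0.391 RPKM and Sema3g 2.27 ± 0.996 RPKM. The membrane-bound and other semaphorins of classes 4 to 7 were led by Sema4f at 33.1 ± 1.97 RPKM, Sema4b at 10.6 ± 1.35 RPKM and Sema4d, a ligand of Plxnb1, at 9.29 ± 0.556 RPKM. In that class 10 of 13 genes exceeded 1 RPKM. Both neuropilins were well expressed, Nrp1 at 34.2 ± 2.21 RPKM and Nrp2 at 7.62 ± 0.358 RPKM. Their MN ranges did not overlap. Among 9 plexins, 7 exceeded 1 RPKM, led by Plxnc1, the receptor of Sema7a, at 14.0 ± 1.40 RPKM, Plxnd1 at 7.79 ± 0.438 RPKM and Plxna2 at 4.54 ± 0.107 RPKM.

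Of the Slits, Slit1 stood at 10.8 ± 0.643 RPKM, while Slit2 and Slit3 lay at 0.316 ± 0.0548 and 0.134 ± 0.108 RPKM. Robo4, the endothelial member of its family, had the highest mean of the 4 Robos at 7.42 ± 3.32 RPKM, ahead of the neuronal receptor Robo2 at 5.41 ± 0.574 RPKM, but the MN ranges of the 2 overlapped. Robo1 lay at 0.767 ± 0.227 RPKM. The netrin arm was low throughout. Ntn5 had 0.848 ± 0.441 RPKM, Ntn3 had 0.744 ± 0.303 RPKM and Ntn1, the founding member, 0.253 ± 0.0676 RPKM, so that none of the 4 netrins reached 1 RPKM. Among their receptors Unc5a lay at 0.611 ± 0.121 RPKM and Unc5c at 0.559 ± 0.0685 RPKM, and none of the Unc5 netrin receptors nor Dcc reached 1 RPKM. Unc50, which is no netrin receptor, had 46.8 ± 5.20 RPKM.

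Read in order of level, several neighbors did not differ beyond their spread over the 3 MN samples. The ranges of Efna1 and Unc50 overlapped, as did those of Nrp1 and Sema4f, of Sema3b and Plxnc1, and of each neighboring pair from Slit1 through Sema4b, Ephb6 and Efna5 to Sema4d. Gaps with no overlap lay between Unc50 and Nrp1, Sema4f and Sema3b, Plxnc1 and Slit1, and Sema4d and Plxnd1.

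**Figure D1:**
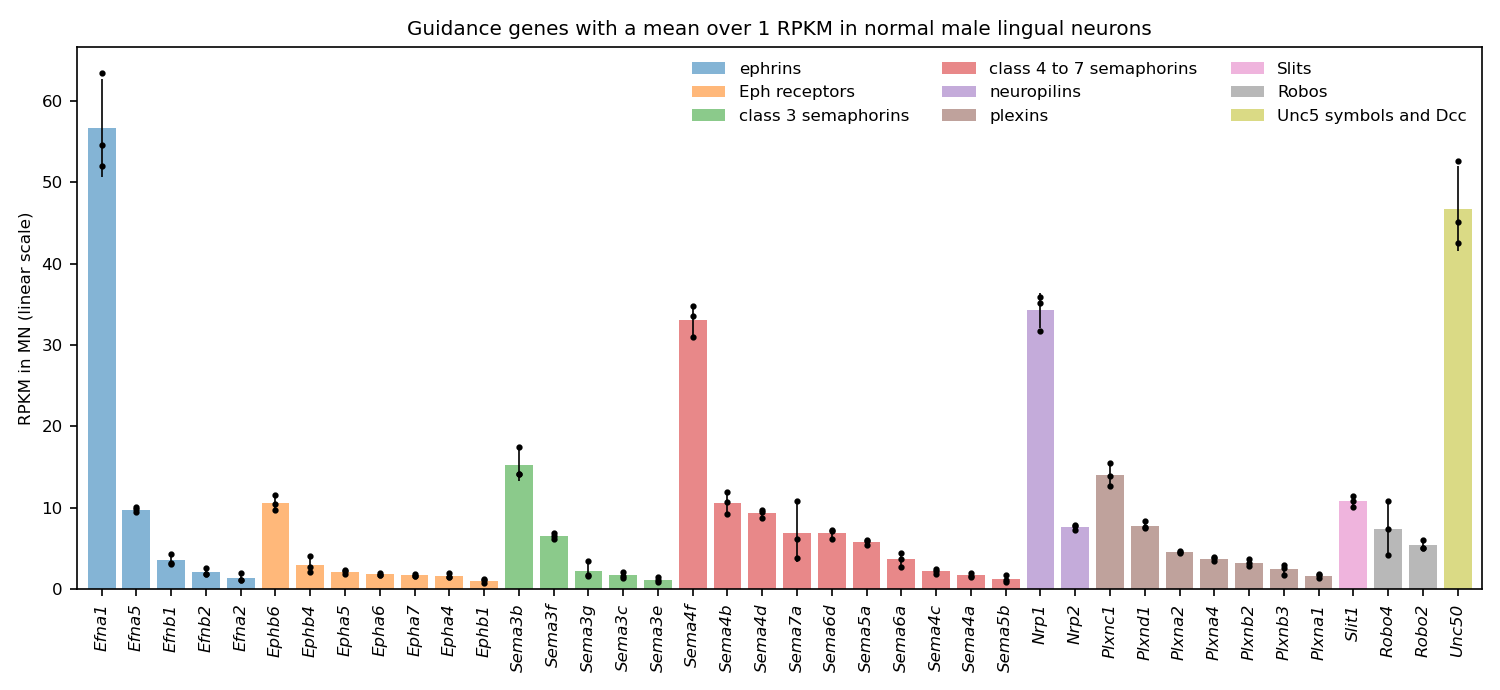
RPKM (vertical axis, linear scale) in the 3 MN samples for the 40 guidance genes with a mean over 1 RPKM, grouped by family. Bars are means, error bars are SD and points are samples. Efna1, Unc50, Nrp1 and Sema4f stand above the other genes shown, and no netrin, netrin receptor or Sema3a reaches the plot.

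Many genes of the tables lay outside the range of the other 9 libraries in the 3 that stood apart, so the counts for guidance genes are read against the share of all genes. Over the 62 guidance genes that passed the filter on low counts, 43 lay below the range of the other 9 libraries in FN replicate 2, against 49.9% of the 13835 genes tested, and 3 lay above it, against 28%. In FT replicate 2, 29 lay below, against 53.1%, and 13 above, against 26.4%. In FT replicate 3, 35 lay below, against 41.2%, and 6 above, against 30.1%. A total of 18 guidance genes lay below the 9 in all 3 libraries, against 25.8% of the genes tested. The 18 of 62 are near that share, and in FT replicate 2 the shares of guidance genes below and above the range were smaller than those of all genes. In FN replicate 2 and FT replicate 3 the share of guidance genes below the range was larger than that of all genes, and the share above it smaller. These 18 were Slit1, Robo4, Nrp1, Plxnc1, Plxnd1, Sema3c, Sema3g, Sema4b, Sema4c, Sema4d, Sema4f, Sema5b, Sema6d, Epha2, Epha7, Ephb1, Ephb4 and Ephb6, named after their values were seen.

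Sema4f, a membrane-bound class 4 semaphorin, was among the 18. It had 179, 172 and 159 CPM in MN, 153, 183 and 173 CPM in MT, 119, 16.2 and 154 CPM in FN and 165, 108 and 38.8 CPM in FT. FN replicate 2 was thus far below the 2 other FN samples. Efna1 went the other way, with 94.3 to 122 CPM in the 9 libraries, 196 CPM in FN replicate 2 and 175 CPM in FT replicate 3, but 62.1 CPM in FT replicate 2. Unc50 had the same order, with 65.6 to 83.6 CPM in the 9 libraries, 160 CPM and 142 CPM in FN replicate 2 and FT replicate 3 and 32.4 CPM in FT replicate 2. Gene length moved with these shifts. In FN replicate 2, the genes below the range had a median summed exon length of 4475 bases and those above it 2121 bases, and in FT replicate 3 the medians were 4742 and 2151 bases. In FT replicate 2 they were 3664 and 3808 bases. The tested guidance genes were long, with a median of 6172 bases against 3755 over the genes tested. The part of gene length in the results below was not tested. Values that leave out libraries are given beside the main results that involve females.

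The comparison of FN with MN asks how lingual neurons differ between the sexes without a tumor. Over all 12 libraries no guidance gene passed an adjusted p of 0.05 (edgeR quasi-likelihood test, Benjamini-Hochberg over 13360 genes outside X and Y, of which 0% passed). Only Ntn5 and Sema4g of the 59 guidance genes tested had an unadjusted p under 0.05, against 5.57% of genes, and their adjusted p was 0.81 for both. DESeq2 called 0 guidance genes and limma-voom with sample quality weights 6. None met the study criteria (unadjusted p under 0.05, fold over 1.5, mean over 5 RPKM in either group), against 3.69% of genes.

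Without FN replicate 2, and fitted on the 2 groups alone (FN replicates 1 and 3 with the 3 MN samples, a choice made after the data were seen), 8 guidance genes of 57 had an adjusted p under 0.05. Robo4, Sema3g, Ephb4, Nrp1, Ephb3 and Sema3b were higher in FN, against 3.98% of the 13156 genes, and Efna5 and Sema5a were lower, against 1.55%. At the weighted limma-voom fit of all 12 libraries the 6 called were Ephb3, Ephb4, Robo4 and Sema3g, higher, and Efna5 and Sema5a, lower, against 5.99% of genes in either direction. In the fit of 9 libraries, which also leaves out FN replicate 2 but keeps the 4 groups in 1 model, no guidance gene of 61 passed (lowest adjusted p = 0.098, edgeR), against 0.391% of genes, and 14 had an unadjusted p under 0.05, against 15.2%. Within edgeR the 8 calls thus need the fit of the 2 groups as well as the omission of that library. The weighted limma-voom fit reached 6 of the 8 with all 12 libraries. The median log2 fold change over the guidance genes was -0.08 in the fit of the 2 groups, beside -0.00085 over all genes.

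Robo4, an endothelial receptor that stabilizes vessels, lies at chr9:37209482-37221608 on the plus strand (mm9). Its 12 values were 30.1, 17.0 and 44.3 CPM in MN, 21.9, 35.7 and 61.0 CPM in MT, 71.4, 1.30 and 66.6 CPM in FN and 49.4, 6.31 and 9.76 CPM in FT. FN replicates 1 and 3 were above every MN sample, and FN replicate 2, with 10 reads, was below all other libraries. The log2 fold change of FN against MN was 0.58 ± 0.89 (SE; adjusted p = 0.85, edgeR) over 12 libraries and 1.13 ± 0.25 (adjusted p = 0.020) without FN replicate 2.

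Sema3g, a class 3 semaphorin known from arterial endothelium, lies at chr14:32031046-32043536 on the plus strand. It had 7.31, 8.07 and 15.5 CPM in MN, 6.04, 8.47 and 13.9 CPM in MT, 22.9, 0.522 and 20.8 CPM in FN and 15.1, 1.31 and 3.21 CPM in FT. FN replicate 2 rested on 4 reads and FT replicate 2 on 6. The 2 other FN samples were above the MN range, with a log2 fold change of 1.03 ± 0.27 (adjusted p = 0.041, edgeR) without FN replicate 2 and 0.50 ± 0.86 (adjusted p = 0.87) with it.

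Ephb4, the venous receptor of Efnb2, lies at chr5:137791337-137819897 on the plus strand. Values were 12.8, 9.53 and 18.8 CPM in MN, 9.81, 21.4 and 32.6 CPM in MT, 27.2, 4.70 and 33.4 CPM in FN and 29.5, 2.40 and 4.88 CPM in FT. The log2 fold change of FN against MN was 0.67 ± 0.73 (adjusted p = 0.82, edgeR) over 12 libraries and 1.09 ± 0.23 (adjusted p = 0.016) without FN replicate 2.

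The 3 promoters below are shown because each of Robo4, Sema3g and Ephb4 was called higher in FN in that fit and lay below the other 9 libraries in all 3 that stood apart. Each holds the 250 bases before the annotated start (RefSeq sequence, build GRCm38.p6, plus strand), and capitals mark GGAA or its reverse complement TTCC, the core bound by ETS factors, some of which act in endothelial cells. They lie at chr9:37401722-37401971, chr14:31217623-31217872 and chr5:137349859-137350108 in that build, which differs from the build of the counts.
Robo4: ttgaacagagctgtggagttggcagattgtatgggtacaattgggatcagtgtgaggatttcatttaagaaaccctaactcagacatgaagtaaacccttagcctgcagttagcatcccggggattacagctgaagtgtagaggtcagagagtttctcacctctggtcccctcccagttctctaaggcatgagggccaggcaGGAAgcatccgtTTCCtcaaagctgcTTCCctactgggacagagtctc
Sema3g: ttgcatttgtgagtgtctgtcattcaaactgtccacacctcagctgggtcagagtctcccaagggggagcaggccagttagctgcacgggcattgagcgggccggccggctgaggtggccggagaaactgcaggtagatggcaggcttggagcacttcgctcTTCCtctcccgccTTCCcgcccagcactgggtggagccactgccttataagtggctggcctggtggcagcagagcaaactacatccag
Ephb4: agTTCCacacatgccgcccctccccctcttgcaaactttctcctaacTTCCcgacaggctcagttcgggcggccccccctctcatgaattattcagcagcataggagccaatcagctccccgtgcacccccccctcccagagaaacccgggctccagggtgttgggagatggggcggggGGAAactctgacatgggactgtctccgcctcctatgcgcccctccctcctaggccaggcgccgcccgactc
The windows hold 3, 2 and 3 of these cores, counted with overlaps, against a median of 3 over 32851 promoters, 93.4% of which hold at least 1. By this count the 3 promoters do not stand apart from other promoters.

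Nrp1, a co-receptor for class 3 semaphorins and for VEGF, had 208, 187 and 212 CPM in MN, 193, 179 and 250 CPM in MT, 273, 65.5 and 287 CPM in FN and 240, 146 and 75.4 CPM in FT. Its change was small, with a log2 fold change of 0.42 ± 0.09 (adjusted p = 0.021, edgeR) without FN replicate 2 and 0.06 ± 0.46 with it. Sema3b changed by 0.19 ± 0.38 (adjusted p = 0.89, edgeR) on the log2 scale over 12 libraries and by 0.50 ± 0.12 (adjusted p = 0.030) without FN replicate 2. That library held 27.4 CPM of it, below the 37.1 to 101 CPM of the 9 libraries. Ephb3 had 3.52, 3.59 and 4.82 CPM in MN, 11.3 and 8.49 CPM in FN replicates 1 and 3 and 1.44 CPM in FN replicate 2. Its log2 fold change was 0.84 ± 0.54 (adjusted p = 0.81, edgeR) over 12 libraries and 1.26 ± 0.28 (adjusted p = 0.021) without FN replicate 2.

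Endothelial markers were also higher in FN replicates 1 and 3 than in MN. Their sum was 1149, 700 and 1646 CPM in MN and 2162 and 2159 CPM in FN replicates 1 and 3, and in that fit 14 of the 15 markers were higher in FN at an unadjusted p under 0.05 and 9 at an adjusted p under 0.05 (edgeR). Their median log2 fold change was 0.90. Ordered by the marker sum, the 9 libraries outside the 3 that stood apart ran from MN replicate 2 over MT replicate 1, MN replicate 1, MT replicate 2, MN replicate 3, FT replicate 1, MT replicate 3 and FN replicate 3 to FN replicate 1. The 9 values of Robo4 stood in the same order, which 5 of the 13820 genes outside the marker list did (0.0362%), and no other guidance gene. Of the 15 markers themselves, 0 stood in the order of their sum. This order covers only the 9 libraries. FT replicate 3 had a marker sum of 1648 CPM, within the range of the 9, but 9.76 CPM of Robo4, below their range. FT replicate 2 was below the range in both, at 395 CPM for the markers and 6.31 CPM for Robo4. In FN replicate 2 the marker sum, 1693 CPM, lay within the range of the 9 libraries, but Pecam1 had 15.0 CPM against 43.9 to 163 CPM and Tek had 3.26 CPM against 9.43 to 53.6 CPM, while Cldn5 had 427 CPM and Ly6c1 704 CPM. Satellite glia markers were higher too, with sums of 4303 to 5154 CPM in MN and 8440 to 16557 CPM in FN, and so were macrophage markers, with 15.3 to 26.9 CPM in MN and 112 to 258 CPM in FN. Fibroblast markers were also higher, with 121 to 180 CPM in MN and 221 to 461 CPM in FN. Sums of pericyte and smooth muscle markers overlapped, with 106 to 177 CPM in MN and 146 to 303 CPM in FN. The part of RNA from any of these cell types in the differences of guidance genes was not tested.

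Efna5, a repellent EphA ligand at chr17:62953533-63230666 on the minus strand (mm9), was the clearest lower gene, and it did not depend on FN replicate 2 for its direction. It had 38.1, 39.7 and 40.4 CPM in MN, 44.4, 32.4 and 31.7 CPM in MT, 25.9, 20.1 and 24.2 CPM in FN and 30.6, 38.5 and 33.0 CPM in FT. Every FN sample lay below every sample of the other 3 groups. The log2 fold change of FN against MN was -0.70 ± 0.14 (adjusted p = 0.0100, edgeR) without FN replicate 2, and -0.66 ± 0.32 (adjusted p = 0.81) over 12 libraries. Sema5a, a semaphorin with thrombospondin repeats, had 64.7, 72.9 and 71.3 CPM in MN and 43.6, 25.3 and 58.1 CPM in FN. Its log2 fold change was -0.66 ± 0.35 (adjusted p = 0.81, edgeR) over 12 libraries and -0.51 ± 0.14 (adjusted p = 0.048) without FN replicate 2. In the fit of the 2 groups without FN replicate 2, 15 of the 16 sensory neuron markers were lower in FN, 5 of them at an adjusted p under 0.05 (edgeR). The median over the list was -0.27 on the log2 scale. In FN replicate 2 itself the marker sum was 30948.5 CPM, above the 26606.2 to 27793.5 CPM of MN. Efna5 and Sema5a had their lowest FN values in that library. The part of neuronal RNA in the result was not tested.

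Counted over all 3 FN samples, 13 guidance genes had every FN value below every MN value, against 10.2% of the 13360 genes, and 2 had every FN value above, against 9.66%. The 2 were Ntn5 and Sema4g, both at or under 4.57 CPM in these groups. Among the 13 were Efna5, Sema5a, Sema4f, Nrp2, Plxna2, Plxnc1, Plxnd1 and Ephb6, named after their values were seen. With CPM scaled by TMM, 10 were below, against 10.7%, and the same 2 above, against 10.3%. Efna3, Epha3 and Plxnc1 were then no longer below. Without FN replicate 2 and without that scaling, the same 13 lay below every MN value, against 13.9% of genes. In that count 11 lay above, against 23.2%.

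**Figure D2:**
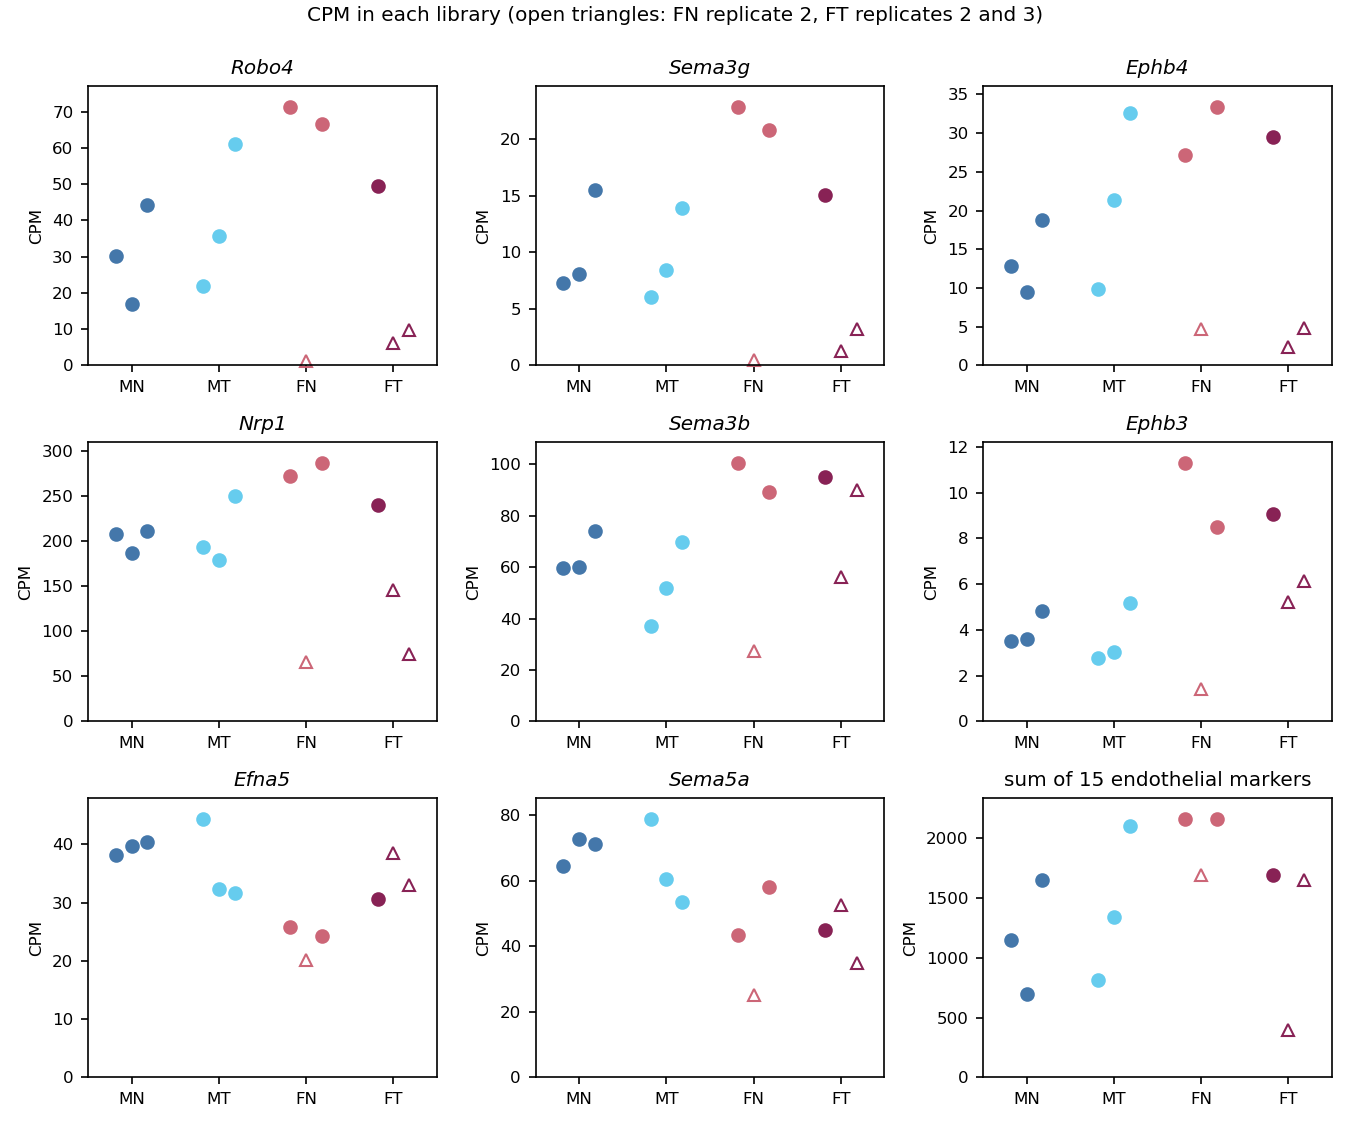
CPM (vertical axes, linear scale from 0) of 8 guidance genes and of the sum of 15 endothelial markers in each of the 12 libraries, by group. Open triangles are FN replicate 2, FT replicate 2 and FT replicate 3, and filled circles the other 9. Robo4, Sema3g, Ephb4 and Nrp1 are below the range of the filled circles in all 3 triangles, and the 3 FN points of Efna5 are below all points of the other groups.

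**Figure D3:**
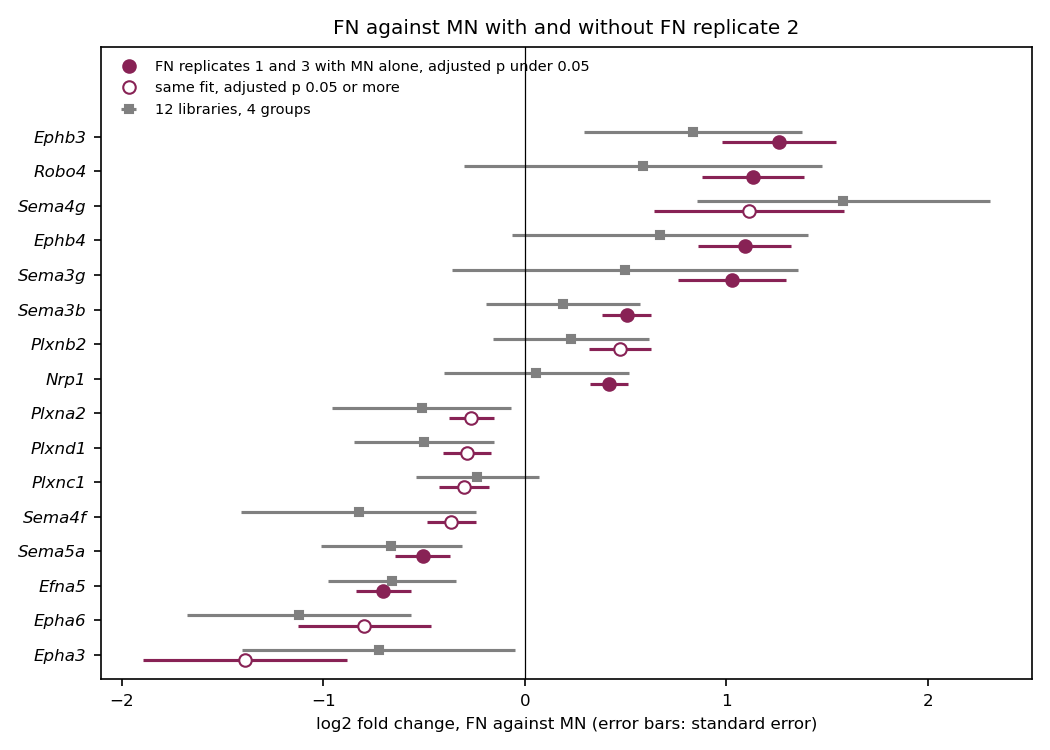
Log2 fold change of FN against MN (horizontal axis) with its standard error for the 16 guidance genes with an unadjusted p under 0.05 without FN replicate 2. Gray squares are the 12-library fit and circles the fit of FN replicates 1 and 3 with MN alone, filled for the 8 genes with an adjusted p under 0.05. All 16 genes keep their direction in both fits, and the gray error bars are wider.

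The comparison of MT with MN asks how a tongue tumor changes lingual neurons in males, and none of the 3 libraries that stood apart is in these groups, although the 12-library fit takes its spread from them too. No guidance gene of 62 passed an adjusted p of 0.05 over 12 libraries (edgeR, 0% of 13835 genes passed), none had an unadjusted p under 0.05, against 0.426% of genes, and none met the study criteria, against 0.152%. DESeq2 and limma-voom called 0 guidance genes as well. In the fit of the 6 male libraries alone, 6 genes of 13322 passed (0.045%) and none was a guidance gene. In all, 3 receptors had an unadjusted p under 0.05 in that fit, all lower in MT, against 3.22% of genes lower and 3.7% higher, and none was higher. With limma-voom over 12 libraries 13 guidance genes were lower in MT at an unadjusted p under 0.05, against 6.14% of genes, and 1 was higher, against 5.18%, with a lowest adjusted p of 0.14.

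Plxnd1, the receptor of Sema3e, had 54.0, 54.5 and 59.7 CPM in MN and 38.9, 40.0 and 49.1 CPM in MT, with no overlap between the groups. Its log2 fold change was -0.38 ± 0.11 (adjusted p = 0.49, edgeR on the 6 male libraries). Ephb6 had 36.6, 43.4 and 39.6 CPM in MN and 24.0, 30.1 and 36.2 CPM in MT, a log2 fold change of -0.39 ± 0.15 (adjusted p = 0.69, edgeR). Plxna1, a receptor that pairs with neuropilins, had 12.1, 15.2 and 16.4 CPM in MN and 9.43, 9.86 and 11.5 CPM in MT, a log2 fold change of -0.50 ± 0.19 (adjusted p = 0.69, edgeR). A further gene, Sema4d, had 56.0, 63.0 and 60.7 CPM in MN and 38.0, 46.3 and 59.4 CPM in MT. It had an unadjusted p under 0.05 in the fit of 9 libraries, with a log2 fold change of -0.31 ± 0.14 (adjusted p = 0.68, edgeR), and with limma-voom, at -0.36 ± 0.15 (adjusted p = 0.36).

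A total of 10 guidance genes of 62 had every MT value below every MN value, against 7.32% of the 13835 genes, and 0 had every MT value above, against 5.8%. They were the receptors Epha4, Epha6, Epha7, Ephb6, Plxna1, Plxnd1 and Nrp2 and the ligands Sema4a, Sema6c and Slit2, named after their values were seen. With CPM scaled by TMM 10 were below, with Plxna2 in place of Epha7, and 1, Sema4g, was above. Nrp2 moved little, from 68.6 to 74.9 CPM in MN to 65.2 to 66.3 CPM in MT. Slit2 was low, at 3.81 to 5.28 CPM in MN and 0.864 to 3.47 CPM in MT. Of the 9 plexins, 8 had a negative log2 fold change in MT, with a median of -0.17, and all 4 Robos a positive one, with a median of 0.22, beside 0.007 over all genes. These are counts of directions, and no single gene passed the adjusted threshold. Endothelial marker sums overlapped between the groups, with 700 to 1646 CPM in MN and 811 to 2097 CPM in MT.

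**Figure D4:**
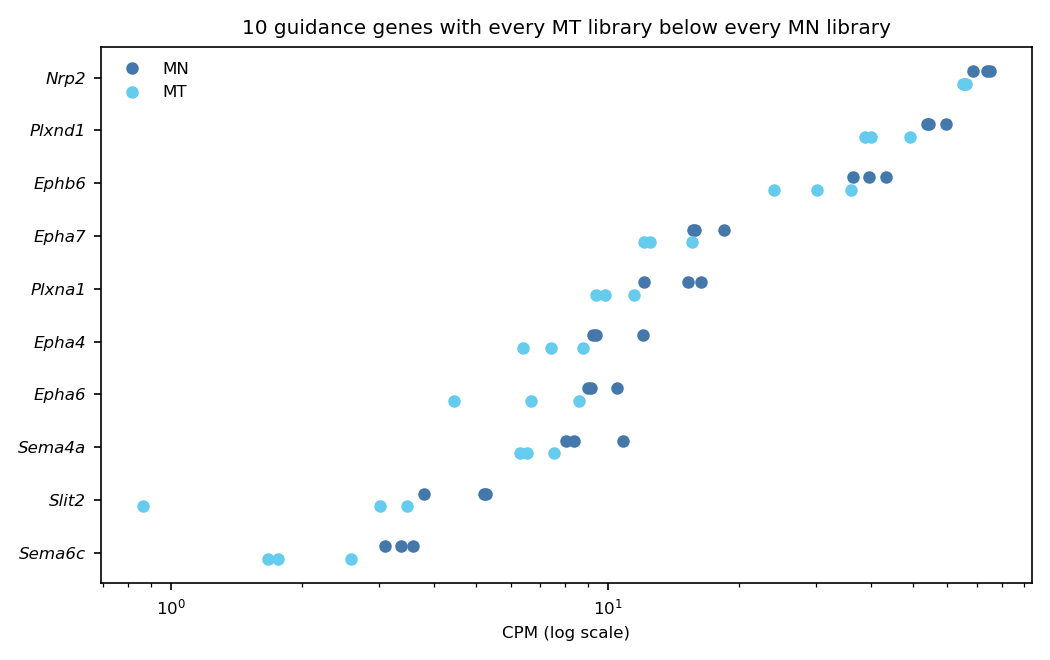
CPM (horizontal axis, log scale) in the 3 MN and 3 MT samples for the 10 guidance genes in which every MT sample lies below every MN sample. Each point is a sample, and the gaps are narrow for Epha4, Epha6, Epha7, Ephb6 and Nrp2.

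The comparison of FT with FN asks the same in females. No guidance gene of 62 passed an adjusted p of 0.05 over 12 libraries (edgeR, 0% of 13835 genes), and DESeq2 and limma-voom called 0. Ntn5 and Plxna4, higher in FT, and Unc5d, lower, had an unadjusted p under 0.05, against 3.82% of genes. A single guidance gene, Plxna4, met the study criteria, against 2.18% of genes. Plxna4, the plexin that transmits Sema3a signals, had 33.9, 26.5 and 44.9 CPM in FN and 44.7, 129 and 30.0 CPM in FT. One sample, FT replicate 2, was high, and the other 2 lay within the FN range. Its log2 fold change was 1.17 ± 0.51 (adjusted p = 0.99, edgeR) over 12 libraries and 0.04 ± 0.39 (adjusted p = 0.97) in the fit of the 2 groups without FN replicate 2 and FT replicate 2.

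Robo4 and Sema3g had lower means in FT than in FN, within the spread of the samples. The log2 fold change of FT against FN was -1.01 ± 0.90 for Robo4 (adjusted p = 0.99, edgeR) and -1.08 ± 0.88 for Sema3g (adjusted p = 0.99). With FN replicate 2 and FT replicate 2 left out and the 2 groups fitted alone, the values were -1.16 ± 0.61 for Robo4 and -1.18 ± 0.59 for Sema3g (adjusted p = 0.74 for both). In the fit of 9 libraries, where FT is replicate 1 alone and its spread is taken from the other groups, they were -0.48 ± 0.49 and -0.53 ± 0.46 (adjusted p = 0.997 for both). Without FT replicate 1 alone they were -2.25 (adjusted p = 0.28, edgeR) and -2.42 (adjusted p = 0.26). Of the 15 endothelial markers, 14 had a negative log2 fold change over 12 libraries, with a median of -0.83, and none had an unadjusted p under 0.05. Their part in the values of Robo4 and Sema3g was not tested.

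Over the 3 samples of each group, 2 guidance genes had every FT value above every FN value, against 1.22% of genes, and 1 had every FT value below, against 1.26%. Efna5 was one of the 2, at 20.1 to 25.9 CPM in FN and 30.6 to 38.5 CPM in FT, with a log2 fold change that did not pass. Ntn5, a secreted netrin-like protein, was the other. Unc5d, a netrin receptor, was lower, at 3.27, 3.13 and 5.07 CPM in FN and 2.19, 0.218 and 1.81 CPM in FT (log2 fold change -1.37 ± 0.56, adjusted p = 0.99, edgeR). Without FN replicate 2 and FT replicate 2 it was -0.92 ± 0.54 (adjusted p = 0.74). Its lowest value, in FT replicate 2, was a single read.

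The comparison of FT with MT asks how tumor-bearing females and males differ. No guidance gene of 59 passed an adjusted p of 0.05 over 12 libraries (edgeR, 0% of 13360 genes), DESeq2 called 1, Ntn5, against 1.84% of genes, and limma-voom 0. Ntn5, Efnb2 and Sema4g, higher in FT, and Unc5d, lower, had an unadjusted p under 0.05, against 12.1% of genes. None met the study criteria, against 8.16% of genes. In all, 2 guidance genes had every FT value above every MT value, against 8.03%, and 4 every FT value below, against 9.61%. Ntn5 and Ephb3 were the 2, and Unc5d, Robo2, Nrp2 and Sema5a the 4. With CPM scaled by TMM, 3 were above, with Sema3b added, and 2 below, Unc5d and Plxnc1.

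Ntn5 lies at chr7:52939784-52949924 on the plus strand (mm9). It had 0.844, 2.13 and 1.03 CPM in MN, 0.755, 1.53 and 2.35 CPM in MT, 2.51, 3.26 and 3.29 CPM in FN and 4.66, 8.71 and 8.37 CPM in FT. The female samples all exceeded the male ones, and the FT samples the FN ones. These values rest on 6 to 60 reads per library. The log2 fold change of FT against MT was 2.43 ± 0.58 (adjusted p = 0.30, edgeR), and DESeq2 gave an adjusted p of 0.0077. With FT replicates 2 and 3 and FN replicate 2 left out it was 1.53 ± 0.62 (adjusted p = 0.56, edgeR). Exons of Sec1 on the opposite strand cover 25.9% of the exonic bases of Ntn5, and SMART-seq2 libraries carry no strand, so reads there cannot be assigned to one gene. Sec1 itself had 0.503 to 1.23 CPM in MT and 0.686 to 3.63 CPM in FT.

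Efnb2, the arterial ligand of Ephb4, had 9.68, 9.86 and 6.67 CPM in MT and 8.09, 39.0 and 10.9 CPM in FT, so its log2 fold change of 1.42 ± 0.58 (adjusted p = 0.36, edgeR) came with 1 high sample, FT replicate 2. In the fit of 9 libraries it was -0.18. Sema4g followed the same pattern, with 1.64, 2.22 and 2.35 CPM in MT and 1.65, 11.3 and 3.35 CPM in FT, and its log2 fold change went from 1.66 ± 0.71 to -0.38 in the fit of 9 libraries. Robo2, a neuronal Slit receptor, was lower in all 3 FT samples, at 64.9, 76.0 and 31.5 CPM, than in MT, at 94.6, 98.2 and 104 CPM. Its log2 fold change was -0.58 over 12 libraries and -0.67 ± 0.16 in the fit of 9 (adjusted p = 0.33, edgeR). Sema3b was higher in FT by 0.79 ± 0.23 in the fit of 9 (adjusted p = 0.43, edgeR), as was Ephb3 by 1.24 ± 0.38 (adjusted p = 0.45). Plxna2 was at 58.5, 54.7 and 66.9 CPM in MT and 46.9, 87.5 and 29.3 CPM in FT, with groups that overlapped.

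Whether the tumor moved guidance genes differently in females and males, FT against FN minus MT against MN, was tested as an interaction. No guidance gene of 62 passed (edgeR, 0% of 13835 genes), none had an unadjusted p under 0.05, against 1.47% of genes, and DESeq2 and limma-voom called 0. In the fit of 9 libraries, 5 guidance genes of 64 had an unadjusted p under 0.05, against 5.1% of genes. Plxnd1 was one, with a difference of 0.61 ± 0.20 on the log2 scale (adjusted p = 0.93, edgeR), lower in MT than MN and higher in FT replicate 1, at 55.7 CPM, than in FN replicates 1 and 3, at 48.5 and 46.6 CPM. Ephb6, Sema6c and Ephb1 also had positive differences, and Robo2 a negative one of -0.53 ± 0.20 (adjusted p = 0.94, edgeR). Each of these rests on a single FT library.

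Partners of guidance signals inside the cell and at its surface, a list of 64 (among them kinases, collapsin response mediators, adhesion partners), were counted in the same fits. None passed an adjusted p of 0.05 over 12 libraries in the 5 comparisons (edgeR). Unadjusted p under 0.05 was reached by 1 in FN against MN (5.57% of all genes), 0 in MT against MN (0.426%), 1 in FT against FN (3.82%), 5 in FT against MT (12.1%) and 1 in the interaction (1.47%), all higher. The 1 in FT against FN was Enah, an actin regulator, with a log2 fold change of 1.84 ± 0.69 (adjusted p = 0.99), and -0.08 ± 0.40 (adjusted p = 0.94) in the fit of the 2 groups without FN replicate 2 and FT replicate 2. Without FN replicate 2, in the fit of FN and MN alone, 2 of 62 tested passed, both lower in FN, against 1.55% of genes. They were Ntng2, a membrane-anchored netrin relative, at -0.81 ± 0.17 (adjusted p = 0.016, edgeR), and Limk1, a kinase that acts on cofilin downstream of semaphorins, at -0.44 ± 0.11 (adjusted p = 0.032). The median over the 62 was -0.02 on the log2 scale. In the male comparison Limk1 was also lower by value, at -0.36 ± 0.14 (adjusted p = 0.70, edgeR on the 6 male libraries). Both comparisons share the 3 MN samples.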

How the data were processed

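RNA of sorted lingual TG neurons was sequenced from 12 samples, 3 per group. The authors prepared SMART-seq2 libraries, aligned single reads to mm9 with TopHat2 and counted them with HTSeq. Per the submitters' processing notes, CASAVA 1.8.2 and SAMtools were also used. The deposited values are whole read counts without normalization for 22609 symbols, and the 5 rows that name no gene, 76.3% to 88.8% of reads, were left out. Gene annotation and strand setting are not given in the sources used here. Groups and replicate numbers came from the sample labels. Nothing states that samples of a group came from separate litters or days, so p-values measure the spread between these pools.

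CPM used reads counted on genes. RPKM used summed exon lengths of GENCODE M1, which also gave mm9 positions and matched 21627 symbols (95.7%). The floor of 3 counts covers counting error only. Counts were fitted with edgeR 4.0.16 (R 4.3.3, TMM, filterByExpr with minimum count 10 and minimum total 15, quasi-likelihood test, Benjamini-Hochberg over all genes tested), with 12 libraries in 4 groups, after the study's use of a count model. Genes on X and Y, among them 3 members (Efnb1, Plxna3 and Plxnb3), were left out of FN against MN and FT against MT. Of 71 members 62 passed the filter and 9 did not, so counts over tested members are not counts over all members. SE is the log2 fold change divided by the root of the F statistic.

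Members and lists were chosen with earlier results of these data known. Named genes are the 3 highest of each family in MN, up to 5 per comparison with an unadjusted p under 0.05 in any of 3 fits, and Robo4 and Sema3g. Marker lists served as values beside results. Alternatives were limma-voom (limma 3.58.1), DESeq2 1.42.0, DESeq2 size factors in edgeR, no filter, 9 and 10 libraries, fits of the 2 groups compared, a replicate block, 12 fits that each left out 1 library, other RPKM thresholds and lengths, and 3 chosen after the data were seen (the 2 groups compared without FN replicate 2 and FT replicate 2, library size without scaling, and CPM scaled by TMM for the overlap of groups, which otherwise used CPM). Scripts were tested on simulated data. Python 3.11.15, numpy 2.4.6, pandas 2.3.3 and matplotlib 3.10.9 were used for summaries and plots.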

Additional observations from a re-analysis of the deposited data

How the results depend on the processing

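The 40 members over 1 RPKM in MN became 38 to 43 under other lengths, scalings or samples. Of the counts of members past an adjusted p of 0.05, those for MT against MN, FT against FN and the interaction stayed at 0 in every alternative run. For FN against MN the count went from 0 to 6 with limma-voom and to 8 in the fit of the 2 groups without FN replicate 2, but was 0 with 9 or 10 libraries, both of which leave it out, and for FT against MT from 0 to 1 with DESeq2, with a range of 0 to 1 over the fits that left out 1 library (1 without FT replicate 1). With the replicate block these counts were 0 in all 5 comparisons. The replicate numbers share no stated source, and 5 of 18 same-number pairs correlated above 0.1 (-0.35 to 0.57), so the samples were not treated as paired.

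Members meeting the study criteria in FN against MN numbered 0, but 2 with limma-voom, 3 with 9 libraries, 1 with 10, 2 in the fit of the 2 groups, 3 in that fit without FN replicate 2, 1 without scaling, 1 at 1 RPKM and 0 to 2 when 1 library was left out. In FT against FN the 1 member became 2 with DESeq2, 0 with 9 libraries, 0 in both fits of the 2 groups, 0 with the replicate block, 0 without scaling, 2 at 1 RPKM and 0 to 6 when 1 library was left out (6 without FT replicate 1, 3 without FT replicate 3, 0 without FT replicate 2 or FN replicate 1). In FT against MT the 0 became 1 with DESeq2 or its size factors, 2 with limma-voom, 2 with 9 libraries, 4 with 10, 3 at 1 RPKM and 0 to 5 when 1 library was left out (5 without FT replicate 1). In MT against MN it stayed at 0.

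Log2 fold changes turned sign for Nrp1 in FN against MN (-0.010 with the replicate block, -0.21 to 0.43 when 1 library was left out), for Robo2 in FT against FN (-0.52 to 0.24 when 1 library was left out), for Efnb2 (-0.18) and Sema4g (-0.38) in FT against MT with 9 libraries, and for Plxna2 there (-0.37 with limma-voom, -0.42 with 9 libraries, -0.65 with 10, -0.14 without scaling and -0.65 to 0.43 when 1 library was left out). In the interaction, leaving out 1 library gave -0.68 to 0.084 for Robo2, -0.076 to 1.64 for Ephb1 and -0.15 to 0.61 for Ephb6, and limma-voom gave -0.019 for Ephb6. None of these had passed the adjusted threshold over 12 libraries, but Nrp1 had in the fit of the 2 groups without FN replicate 2 (0.42, adjusted p = 0.021). The cause was not tested. Without scaling, the median over all genes in FT against FN was -0.12, beside -0.06 with TMM. Depth limits Ntn5, Sema4g and Unc5d, genes with few reads in each library.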
